A study of Homo sapiens with 22 samples.

Results

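The A673 H3K4me1-only sites are distal stretches of chromatin that carried a called peak of histone H3 lysine 4 monomethylation and no called peak of the other profiled features named in the rule. They are 8828 of the 43083 peaks in the second A673 H3K4me1 library (20.5%). They cover 9.15 Mb of the 51.6 Mb in that list. A site had to overlap a peak of the first A673 H3K4me1 library by at least 1 bp and lie over 2.5 kb from both boundaries of every protein-coding gene. It also had to overlap no peak in 9 other lists, namely the 4 H3K27ac lists (2 from A673 and 2 from CHLA10), the 2 A673 H3K4me3 lists, the 2 A673 H3K27me3 lists and the A673 HOXD13 list. The absence of these peaks is therefore how the sites were chosen and not a result.

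The libraries were made by automated CUT&RUN, in which an antibody directs a nuclease to cut out the bound chromatin for sequencing, from A673 and CHLA10, both established Ewing sarcoma cell lines. Each histone mark has 2 libraries per line, titled shNS in both lines, and HOXD13, a homeobox transcription factor, has 1 library per line without that word in its title. A673 was kept in RPMI medium and CHLA10 in IMDM with a richer serum supplement and insulin, transferrin and selenium, so line and medium cannot be told apart. No source states that the 2 libraries of a mark came from separate cultures, so the spread between them may be technical. No other treatment is given in the labels. The lists give the called peaks without reads, and the depth of each library is unknown. Without counts, a site with no peak of a mark was only not called for that mark in that library.

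H3K4me1 is laid down by the MLL3 and MLL4 methyltransferases and is found over enhancers, the distal elements that raise transcription of a gene from afar. Enhancers in use usually also carry H3K27ac, an acetyl mark. Those with H3K4me1 and no H3K27ac are commonly called primed, and those with H3K4me1 and the Polycomb mark H3K27me3 poised. H3K4me3 marks promoters. In Ewing sarcoma the EWS-FLI1 fusion protein opens enhancers at GGAA repeats and displaces other factors elsewhere.

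Genome sequence of the sites themselves was not used here. What can be shown are the RefSeq start windows (250 bases before to 50 bases after an annotated transcription start, GRCh38.p14) that fall inside a site although the boundaries of all protein-coding genes lie further off, being starts of noncoding RNAs or internal starts of protein-coding genes. Such windows show the DNA under the mark. The 6 below lie wholly inside a site and hold TGANTCA, printed in capitals, where N is any base. This pattern is wider than the core recognised by the AP-1 factors FOS and JUN, which has C or G in the middle. The SH3BP4 and LOC105371224 windows have A and T there. They are the 3 protein-coding and the 3 noncoding windows of this kind with the highest −log10 q, and they were picked after these values were seen.
MRTFB: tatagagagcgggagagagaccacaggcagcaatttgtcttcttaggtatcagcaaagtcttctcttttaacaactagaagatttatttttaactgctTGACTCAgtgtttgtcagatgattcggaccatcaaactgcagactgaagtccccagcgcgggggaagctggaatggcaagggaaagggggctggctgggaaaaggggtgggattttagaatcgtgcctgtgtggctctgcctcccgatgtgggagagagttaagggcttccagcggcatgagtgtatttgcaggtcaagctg
CYP19A1: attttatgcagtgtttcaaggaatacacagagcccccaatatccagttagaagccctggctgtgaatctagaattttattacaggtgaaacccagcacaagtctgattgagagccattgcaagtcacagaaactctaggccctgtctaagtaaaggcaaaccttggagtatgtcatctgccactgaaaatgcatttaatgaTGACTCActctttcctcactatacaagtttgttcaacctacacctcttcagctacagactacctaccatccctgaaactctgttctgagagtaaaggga
SH3BP4: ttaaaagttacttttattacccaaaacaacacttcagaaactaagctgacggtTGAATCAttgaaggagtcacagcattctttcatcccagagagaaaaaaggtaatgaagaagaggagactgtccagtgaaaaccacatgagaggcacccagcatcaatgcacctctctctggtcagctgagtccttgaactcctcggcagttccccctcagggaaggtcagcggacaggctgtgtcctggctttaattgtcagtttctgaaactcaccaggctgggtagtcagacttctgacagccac
GSE1-AS1: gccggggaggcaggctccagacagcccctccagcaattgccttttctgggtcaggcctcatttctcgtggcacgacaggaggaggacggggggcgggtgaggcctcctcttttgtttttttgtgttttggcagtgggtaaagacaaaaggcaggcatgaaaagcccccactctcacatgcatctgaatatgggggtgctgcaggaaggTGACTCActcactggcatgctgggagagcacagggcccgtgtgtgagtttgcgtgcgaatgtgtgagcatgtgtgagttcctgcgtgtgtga
LOC124904076: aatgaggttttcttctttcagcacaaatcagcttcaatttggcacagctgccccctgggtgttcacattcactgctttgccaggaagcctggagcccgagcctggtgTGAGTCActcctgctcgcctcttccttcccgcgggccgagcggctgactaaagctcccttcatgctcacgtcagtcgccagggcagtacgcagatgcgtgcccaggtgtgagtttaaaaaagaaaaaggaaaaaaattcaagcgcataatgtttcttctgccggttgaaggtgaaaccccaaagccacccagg
LOC105371224: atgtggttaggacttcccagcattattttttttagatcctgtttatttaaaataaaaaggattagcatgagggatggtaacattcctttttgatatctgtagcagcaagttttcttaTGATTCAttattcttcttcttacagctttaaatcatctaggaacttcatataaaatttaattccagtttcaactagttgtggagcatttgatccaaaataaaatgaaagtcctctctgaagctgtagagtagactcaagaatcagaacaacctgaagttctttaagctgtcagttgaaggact

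The MRTFB window, at an internal start of the gene of an actin-regulated coactivator, is chr16:14186436-14186735 on the plus strand, within a site of 1013 bp. The CYP19A1 window, at an internal start of the aromatase gene, is chr15:51243866-51244165 on the minus strand, within a site of 1331 bp. The SH3BP4 window is chr2:234965089-234965388 on the plus strand, within a site of 2401 bp. The GSE1-AS1 window is chr16:85583553-85583852 on the minus strand, and its site had a −log10 q of 33.7 in the second library and 45.0 in the first. The remaining 2 are chr17:80826851-80827150 (LOC124904076) and chr1:148445103-148445402 (LOC105371224), both on the minus strand. Each of the 6 windows holds the motif 1 time, and none overlapped an H3K4me3 peak in both CHLA10 libraries. CG dinucleotides number 0 in the CYP19A1 window and 12 in the LOC124904076 window.

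In all, 150 start windows of 143 genes overlapped a site, of which 100 belong to long noncoding RNAs and 50 to protein-coding genes. Their median CpG content, observed over expected from the base composition, was 0.239, against 0.847 in the 16447 windows with A673 H3K4me3 in both libraries and 0.244 in the 17764 windows with A673 H3K4me3 in neither. A ratio above 0.6 was found in 6 of the 150 (4.00%), against 48.9% of all 34961 windows. The rule bars A673 H3K4me3, which sets much of that contrast: the share was 13.0% in windows with no A673 H3K4me3, 7.03% at A673-acetylated distal peaks and 6.01% at all distal replicated peaks. Their median GC content was 48.3%, close to the 48.7% of the windows with no A673 H3K4me3.

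The AP-1 type motif TGANTCA, wider than the AP-1 core and the same on both strands, was present in 43 of the 150 windows at the sites (28.7%, exact 95% interval 21.6 to 36.6%). Over all start windows of this length the share was 7.68%. It was 10.3% (9.80 to 10.7%) in the 15987 windows with neither H3K4me3 nor H3K4me1 in A673, which have the same median GC content of 48.7%, and 3.89% in windows with A673 H3K4me3 in both libraries. At distal H3K4me1 peaks with H3K27ac in both A673 libraries it was 25.4% (47 of 185 windows, 19.3 to 32.3%), within the interval of the H3K4me1-only sites. The intervals cover counting error only, and neighbouring windows of 1 gene share bases. The other motifs searched on both strands were rare: the repeat of GGAA 3 times in a row was in 0 windows at the sites, against 0.0858% of all windows. The HOX type motifs CCAATAAA and CTCGTAAA were in 2 and 0 windows at the sites, against 0.938% and 0.137% of all windows. A match is a string of letters and not a bound site, and no match says nothing of the factor.

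Most distal peaks left the set because they carried H3K27ac. Of 43083 peaks, 27915 overlapped the first library and 24616 of those were distal. Removing overlaps with the 2 A673 H3K27ac lists left 13357, and removing those with the 2 CHLA10 H3K27ac lists left 10151. The A673 H3K4me3 lists left 9788, the A673 H3K27me3 lists 9169 and the HOXD13 list 8828. The sites are thus 35.9% of the distal peaks seen in both A673 libraries. A further 2041 distal peaks would have qualified but for the first A673 H3K27ac list alone, 1561 but for the second, and 341 but for the HOXD13 list alone.

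**Figure D1:**
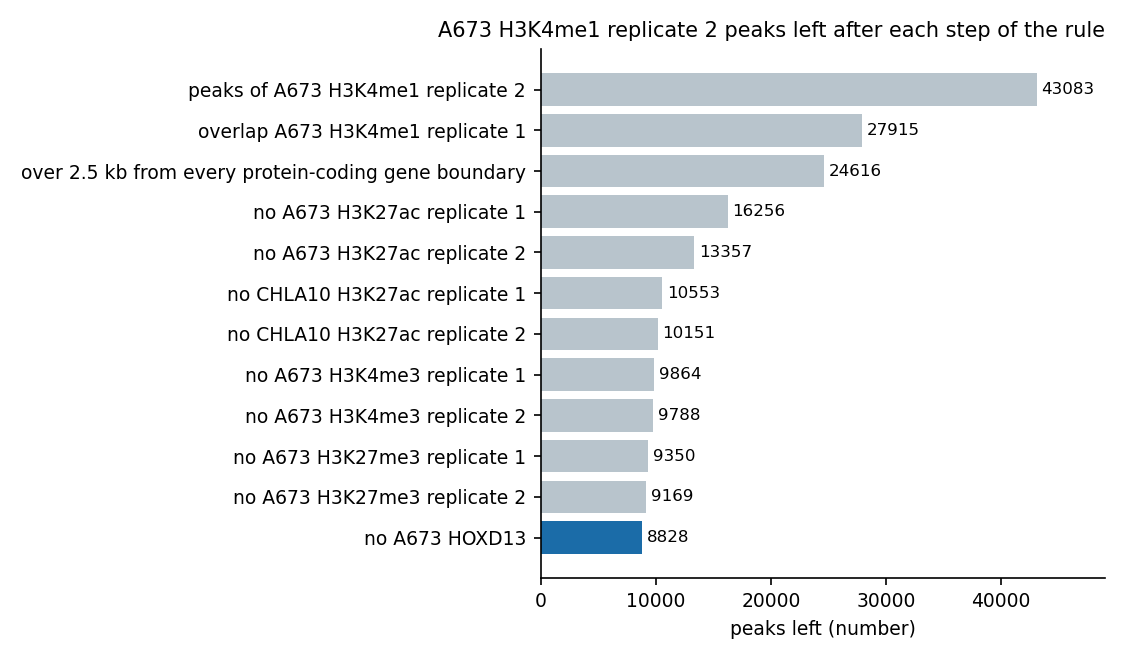
Number of peaks of the second A673 H3K4me1 library left (horizontal axis) after each step of the rule, from top to bottom. The bars fall from 43083 to 8828 peaks, and the steepest drops beyond the first library and the distance are at the A673 H3K27ac lists.

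Peaks on either side of the distance limit overlapped in strength. Just over 2.5 kb lie sites near STX7 and UBE2V2 (both 2501 bp from a gene boundary) and NELL1 (2506 bp), with −log10 q of 3.65, 9.21 and 8.01. Just under it lie peaks near UBALD2 (2494 bp), NINJ2 (2499 bp) and PPM1F (2499 bp), with 6.26, 11.7 and 24.4.

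The H3K4me1-only sites were shorter and weaker peaks than acetylated ones, as a description, since the sites were chosen from these lists. Their median length was 768 bp, against 1873 bp for the 4418 distal replicated peaks with H3K27ac in both A673 libraries. It was 1064 bp for the 3206 such peaks with H3K27ac in at least 1 CHLA10 library and no A673 library, and 704.5 bp for the 396 with H3K27me3 in both A673 libraries and no H3K27ac. The acetylated peaks of either kind may also carry H3K4me3, H3K27me3 or HOXD13. The median −log10 q given by the peak caller was 7.25 at the sites, against 14.4, 9.21 and 6.85 in the same order. The caller's fold enrichment had a median of 6.34 at the sites, against 9.37, 6.97 and 6.34. Over the whole list the medians were 774 bp, 7.21 and 6.34, near those of the sites. Over all distal replicated peaks they were 1115 bp, 9.21 and 7.42. A longer peak has more room to touch a barred list, and the part of this in the lengths was not tested.

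**Figure D2:**
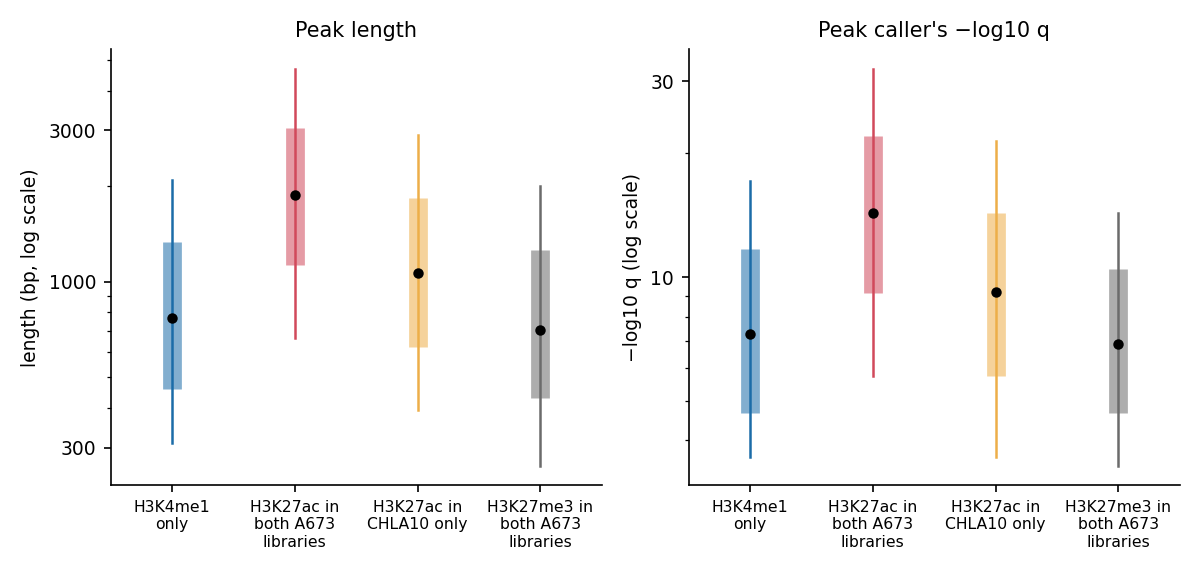
Length in bp (left) and the caller's −log10 q (right), both on log axes, of H3K4me1-only sites, peaks with H3K27ac in both A673 libraries, peaks with H3K27ac in CHLA10 only, and peaks with H3K27me3 in both A673 libraries. Dots are medians, thick bars the middle 50% and thin lines the 10th to 90th percentile; the H3K4me1-only sites have medians of 768 bp and 7.25, against 1873 bp and 14.4 for A673-acetylated peaks.

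The overlapping peaks of the first A673 library had the same order, with a median −log10 q of 9.03 at the sites, against 18.2, 11.5 and 7.85. Strength varied widely among the sites, with the 10th percentile at 3.65, the 90th at 17.1 and the highest value at 55.6. Over the 8828 sites, −log10 q in the second library tracked that in the first (Spearman's rho 0.575) and tracked length within the second (rho 0.644). These are descriptions over peaks of the same libraries. The first library covered a median of 70.8% of a site. For 594 sites (6.73%) an overlapping peak of the first library extended to a peak of one of the 9 other lists.

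The strongest site of all, chr2:23495788-23500127, is 4340 bp long and lies inside KLHL29, which encodes a Kelch-domain protein. Its −log10 q was 55.6 in the second library and 49.7 in the first, and it overlapped no CHLA10 peak. The next, chr11:33897332-33900714, lies 5.26 kb outside LMO2, a transcriptional bridging factor of blood and vessel development, with 53.9 in the second library and 28.5 in the first. A site inside NOS1AP, an adaptor of neuronal nitric oxide synthase, is chr1:162165213-162170329, with 48.7 and 25.5. Both the LMO2 and the NOS1AP site overlapped a CHLA10 H3K4me1 peak in the second CHLA10 library and not in the first.

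The fourth, chr1:30242447-30243697, is 468 kb from the nearest protein-coding gene, MATN1, with −log10 q of 47.0 in the second library and 19.6 in the first. The site inside OSBPL3, an oxysterol-binding protein gene, chr7:24882585-24886977, was the only one of the 10 strongest with CHLA10 H3K4me1 in both libraries. The other 5 of the 10 lie inside RREB1, a zinc-finger repressor acting downstream of RAS, FGD4, SAMD11, LRFN2, a synaptic adhesion protein, and IGF1R, the receptor of insulin-like growth factor on which many Ewing sarcoma lines depend. Their −log10 q ran between 43.0 and 43.6 in the second library and between 24.0 and 44.6 in the first, and none overlapped a CHLA10 peak. The IGF1R site is chr15:98784476-98789270, 136 kb from the gene's nearest boundary.

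The longest site, 9728 bp at chr2:16638582-16648309, lies inside CYRIA, a regulator of the actin cytoskeleton. It is followed by sites inside SPTBN1, a spectrin (9361 bp), next to ETV3, an ETS family repressor (8399 bp), inside TMEM108 (7266 bp) and inside BMPR1A, a BMP receptor (6706 bp). Length and strength were not the same there: the BMPR1A site had a −log10 q of 9.73 in the second library and 25.5 in the first. Of the 5, the ETV3 site overlapped a CHLA10 peak, of H3K4me1 in the second library, and the others overlapped none.

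Few of the sites carried H3K4me1 in CHLA10. A peak of the first CHLA10 H3K4me1 library overlapped 697 of 8828 sites (7.90%, exact 95% interval 7.34 to 8.48%), and one of the second 701 (7.94%, 7.38 to 8.52%), a mean of 7.92% ± 0.032 (SD, n = 2). The background over all peaks of the A673 list was 13.4% in each library, and over the 24616 distal replicated peaks 17.1% and 16.8%. Over the 16258 of those with no CHLA10 H3K27ac, which the rule bars from the sites, it was 8.75% and 8.99%. At A673-acetylated distal peaks the shares were 26.1% and 24.8%. At the H3K27me3 peaks they were 4.55% and 5.05%. At distal peaks with H3K27ac in CHLA10 only it was 30.7% and 29.5%, but that set was itself picked from CHLA10 libraries. No p-value was computed, since regions are not replicates and the same 2 libraries score every set.

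The A673-acetylated set may carry CHLA10 H3K27ac and other marks, while the sites may not. The distance between the 2 was smaller with CHLA10 H3K27ac barred from both. In the 1889 A673-acetylated distal peaks with no CHLA10 H3K27ac, CHLA10 H3K4me1 overlapped 11.5% and 11.4%. In the 1480 A673-acetylated distal peaks held to the same bars, with none of the other 7 lists of the rule, CHLA10 H3K4me1 overlapped 10.7% and 11.4%, a mean of 11.05% ± 0.53 (SD, n = 2), against 7.92% ± 0.032 at the sites. Their median length was 1570.5 bp, against 768 bp for the sites. With the summit alone, which length does not enter, the shares were 4.08% ± 0.18 of sites and 4.70% ± 0.72 of these acetylated peaks, a difference within the spread of the 2 libraries. Both barred sets were added after the data were seen.

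The 2 CHLA10 H3K4me1 libraries mostly marked different sites. Both overlapped 190 sites (2.15%, background 5.29%) and at least 1 overlapped 1208 (13.7%, background 21.5%). Of the sites with a peak in the first library 27.3% had one in the second, against 56.9% for H3K27me3 and 45.0% for H3K4me3. The 2 H3K4me1 libraries also differed at most peaks of the whole A673 list, where the first overlapped 5769 peaks and both overlapped 2277. Among distal replicated peaks these numbers were 4218 and 1706. The CHLA10 H3K4me1 lists are shorter than those of A673, with 23432 and 20956 peaks, against 43083 in the second A673 library and 106770 in the first, so a lower share in CHLA10 carries this difference in calling. It touches every set of A673 peaks named here.

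Longer peaks have more room to overlap. Among sites under 500 bp 4.89% ± 0.48 overlapped CHLA10 H3K4me1 (SD, n = 2), against 2.40% ± 0.68 of the acetylated peaks held to the same bars and 10.3% ± 0.31 of all A673-acetylated peaks. From 500 to below 1000 bp the sites had 7.62% ± 0.47, against 8.28% ± 1.5 and 19.0% ± 0.82. From 1000 to below 2000 bp they had 9.88% ± 0.64, against 9.96% ± 1.9 and 23.3% ± 0.25. At 2000 bp or more they had 12.1% ± 1.0, against 15.4% ± 0.13 and 30.8% ± 1.9. In the middle 2 classes the sites and the acetylated peaks held to the same bars differed by less than the spread of the libraries. At 2000 bp or more the sites had the lower share. Under 500 bp they had the higher share, but only 104 acetylated peaks held to the same bars are that short. The exact intervals of these peaks were 0.234 to 6.77% in the first library and 0.599 to 8.20% in the second. Both hold the 4.89% of the sites, so no direction can be read in that class. Length classes were added after the data were seen. Strength moved with the share too: it was 6.29% and 6.17% in the weakest 20% of sites by −log10 q and 10.4% and 10.1% in the strongest 20%. The summit shares there were 3.57% and 3.45% at the weak end and 4.64% and 5.44% at the strong end.

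**Figure D3:**
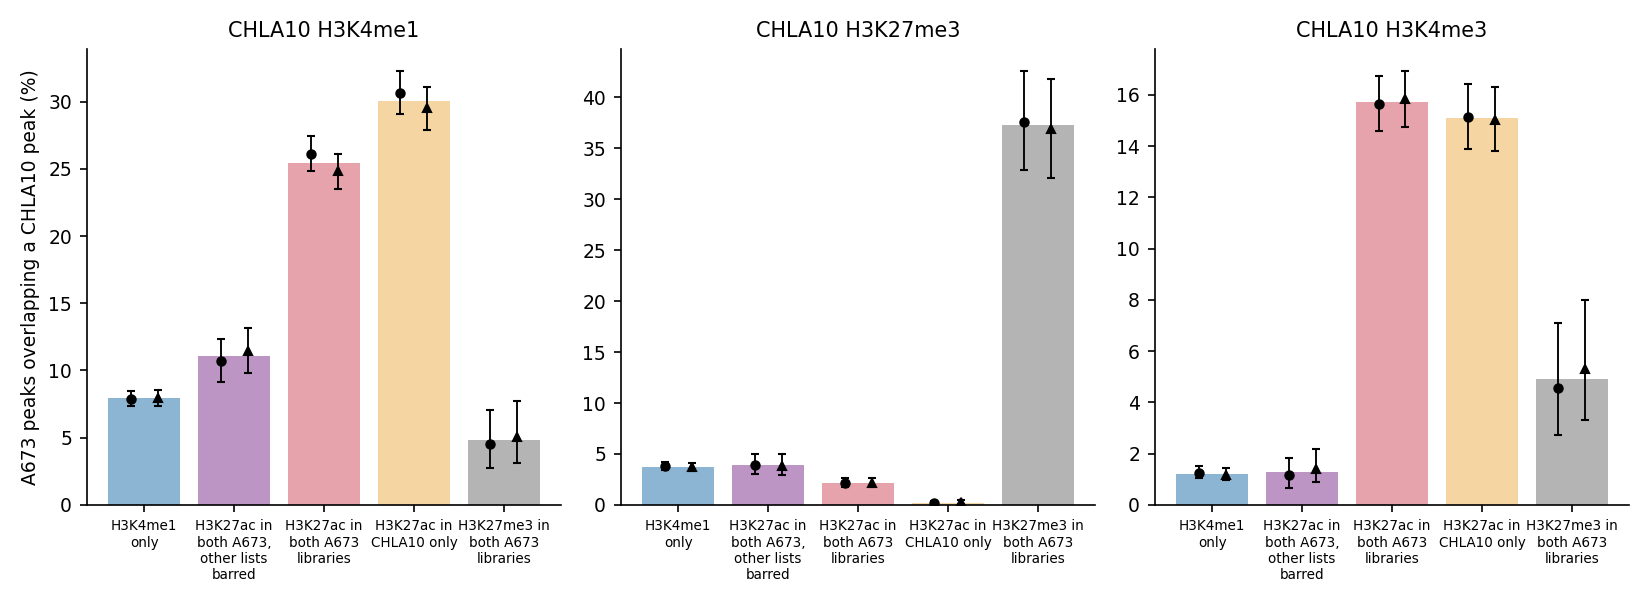
Share of A673 distal peaks in percent that overlapped a CHLA10 peak of H3K4me1, H3K27me3 or H3K4me3, each panel with its own scale, in the 5 sets named under the bars; "other lists barred" marks A673-acetylated peaks with none of the other 7 lists of the rule. Bars are means of 2 libraries, circles the first and triangles the second library with exact 95% intervals; for H3K4me1 the H3K4me1-only sites average 7.92%, against 11.05% for the barred acetylated set, and for H3K4me3 1.22%, against 1.28%.

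**Figure D4:**
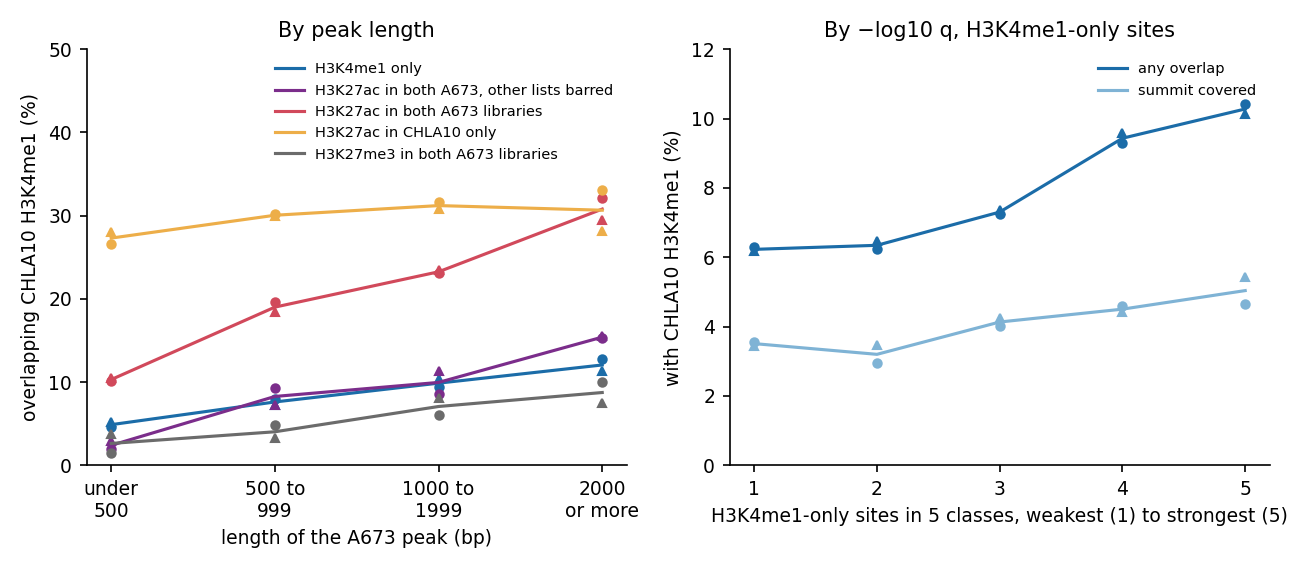
Left, share in percent overlapping CHLA10 H3K4me1 by length of the A673 peak in the same 5 sets; right, the same share in 5 equal classes of −log10 q among H3K4me1-only sites, for any overlap and for a covered summit. Circles are the first library, triangles the second and lines their means; the H3K4me1-only sites lie near the acetylated peaks held to the same bars from 500 to below 2000 bp (7.62% and 9.88%, against 8.28% and 9.96%).

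Of the 190 sites with CHLA10 H3K4me1 in both libraries, the 5 strongest in A673 were as follows. The OSBPL3 site had −log10 q of 45.3 and 42.9 in A673, against 7.88 and 8.43 for the CHLA10 peaks over it. The site inside UNC5B, a netrin receptor of axon guidance, chr10:71259538-71262773, had 35.3 and 51.4 in A673, against 4.36 and 5.06. The other 3 lie 502 kb from CRYBA4, inside JPH2, a junctophilin of muscle membranes, and 18.9 kb from SPINK1, a trypsin inhibitor. Their A673 values lay between 10.2 and 33.2. The CHLA10 peaks over these 3 had values between 2.68 and 5.15. A −log10 q depends on depth and calling in each library, so the 2 lines' values are given side by side and not compared.

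The Polycomb mark was found over a small share of the sites in CHLA10. H3K27me3 peaks overlapped 334 sites (3.78%) in the first CHLA10 library and 327 (3.70%) in the second, a mean of 3.74% ± 0.056 (SD, n = 2). The background was 4.19% and 4.18% of the whole A673 list and 3.43% and 3.45% of its distal replicated peaks, so the share at the sites was near it. The acetylated peaks held to the same bars had 3.92% and 3.85%, all A673-acetylated peaks 2.17% in both libraries, and peaks with H3K27me3 in both A673 libraries had 37.6% and 36.9%. Among the sites 190 had the mark in both CHLA10 libraries (2.15%, background 2.81%), inside peaks with a median length of 5.92 kb in the first library. Of these 190, 82 lay inside a protein-coding gene (43.2%, 36.0 to 50.5%), against 56.9% of all sites.

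The strongest of them, chr1:205422797-205425815, lies inside LEMD1 and had −log10 q for H3K4me1 of 30.51 in the second A673 library and 30.05 in the first. The CHLA10 H3K27me3 peaks over it were 11779 and 9631 bp long. Others lie 204 kb from HNRNPA1L3, inside ANO3, and 87.9 kb from LHX1, a transcription factor gene of early development. The caller's −log10 q of the H3K27me3 peaks over these 4 sites ran between 2.42 and 5.58.

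CHLA10 H3K4me3 was rarer at the sites. It overlapped 111 sites (1.26%) in the first library and 104 (1.18%) in the second, a mean of 1.22% ± 0.056 (SD, n = 2), against a background of 9.39% and 9.52% of the whole list and 8.15% and 8.18% of its distal replicated peaks. All A673-acetylated peaks had 15.6% and 15.8%, but the 1480 held to the same bars had 1.15% and 1.42%, a mean of 1.28% ± 0.19, so the sites differed from these by less than the spread of the libraries. Both libraries marked 50 sites (0.566%, background 7.17%), at a median of 16.3 kb from a gene boundary, against 41.3 kb for all sites. The strongest, chr2:111437792-111441055, is 190 kb from LOC124907867 and also had CHLA10 H3K4me1 in both libraries. Another lies inside SLCO5A1, an organic anion transporter gene that is a known target of EWS-FLI1. Its −log10 q for H3K4me1 was 22.9 and 46.3 in A673, and its CHLA10 H3K4me3 peaks had 6.07 and 11.5. The others of the 5 lie 39.2 kb from ESRRB, an orphan nuclear receptor, 242 kb from ZNF703 and 16.5 kb from NUBPL.

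HOXD13 peaks of CHLA10 overlapped 25 sites (0.283%, 0.183 to 0.418%), against a background of 0.996% of the whole list and 1.31% of its distal replicated peaks, and against 2.35% of A673-acetylated peaks. In the 1480 acetylated peaks held to the same bars it was 0.0676%, which rests on too few peaks to set against the sites. In the 16258 distal replicated peaks with no CHLA10 H3K27ac it was 0.289%, near the share at the sites. There is 1 CHLA10 HOXD13 library, so this has no replicate check, and A673 HOXD13 peaks were barred from the sites. The strongest of the 25 by H3K4me1, chr6:25263433-25263985, is 15.4 kb from CARMIL1, an actin regulator. Its H3K4me1 −log10 q was 12.3 and 15.9 in A673, and the CHLA10 HOXD13 peak over it had 100.3 with a fold enrichment of 41.0. The next 4 lie 156 kb from BTG1, an antiproliferative factor, 48.3 kb from RBBP6, 302 kb from ZNF703 and inside UNC79. Their HOXD13 values lay between 11.9 and 42.5.

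No peak of any of the 7 CHLA10 lists that the rule did not use was found at 7055 sites (79.9%, 79.1 to 80.7%), against a background of 65.5% of the whole list, and against 74.9% of the acetylated peaks held to the same bars and 48.3% of all A673-acetylated peaks. Over the distal replicated peaks with no CHLA10 H3K27ac it was 75.7%. The acetylated peaks held to the same bars and this set have longer peaks (medians 1570.5 and 964 bp, against 768 bp). Length was not held equal in these shares. The 7055 sites had a median length of 740 bp and a median −log10 q of 6.85. H3K4me1 was the only one of the 3 CHLA10 histone marks at 1121 sites (12.7%), H3K27me3 at 443 (5.02%) and H3K4me3 at 97 (1.10%). H3K4me1 was found with H3K27me3 at 22 sites (0.249%) and with H3K4me3 at 62 (0.702%), each counted in at least 1 library. These combinations are not given for other peaks. Counted singly in at least 1 library, the 3 marks overlapped 13.7%, 5.34% and 1.87% of sites. Over the whole list the shares were 21.5%, 5.56% and 11.7%.

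The sites lay inside protein-coding genes about as often as other H3K4me1 peaks. There were 5025 inside one (56.9%, 55.9 to 58.0%), against a background of 58.3% of the whole list, and against 60.2% of A673-acetylated distal peaks. Inside annotated long noncoding RNA genes lay 17.2%, against 16.8%. The median distance to a protein-coding gene boundary was 41.3 kb, against 33.2 kb for A673-acetylated peaks and 59.6 kb for the H3K27me3 peaks. Outside genes and over 100 kb from the nearest lay 1307 sites (14.8%), against 12.52% of the whole list, 12.9% of distal replicated peaks, 14.0% of peaks with H3K27ac in CHLA10 only and 10.1% of A673-acetylated peaks. A start window was overlapped by 143 sites (1.62%), against a background of 3.08% of the whole list, and against 3.58% of A673-acetylated peaks, which are longer. Exons and introns were not told apart here.

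The nearest peak of any of the 4 H3K27ac lists was a median of 5.14 kb from a site, and 1618 sites (18.3%) had one within 1 kb. In A673 alone the median distance was 14.0 kb to the first H3K27ac list and 11.8 kb to the second. The H3K27me3 lists of A673 lay at medians of 147 and 123 kb, and the HOXD13 list at 95.3 kb. The sites were thus closer to acetylated stretches than to Polycomb stretches or HOXD13 peaks, as a description of lists that differ in number and length of peaks. These distances are not given for other H3K4me1 peaks, so they cannot be read as particular to the sites.

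Within 5 times the 2.5 kb distance limit of another site lay 1577 sites (17.9%), in 658 pairs, 75 groups of 3 and 9 groups of 4, the largest size. The share of other H3K4me1 peaks with such a neighbour is not given here, so no clustering particular to the sites can be read. Of the 9 groups of 4, the 5 with the strongest single site are given. The group at DAPK1, a death-associated kinase, spans 42.2 kb at chr9:87513115-87555348, and its 4 sites had −log10 q of 18.5, 38.6, 10.4 and 8.01 in the second library. The group at PTHLH, the parathyroid hormone-like hormone of cartilage growth, spans 25.9 kb with values of 24.4, 10.4, 4.66 and 4.66. The group inside CDH8, a neuronal cadherin, spans 20.3 kb at chr16:61926324-61946627, with values of 14.4, 18.5, 19.9 and 18.5, the most even of the 5. The groups at TSPAN18, a tetraspanin, and TOX2, an HMG-box factor, span 17.7 and 17.8 kb.

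The share of sites among distal replicated peaks differed between chromosomes. Against 35.9% in all, it was 45.8% on chromosome X, 43.8% on 13 and 40.7% on 18. It was 25.0% on chromosome 19 and 29.6% on 11. The share of distal replicated peaks with A673 H3K27ac in at least 1 library was 66.0% on chromosome 19 and 38.3% on X, against 45.7% in all. On chromosome 13 the sites rarely had CHLA10 H3K4me1 (3.05% and 3.44%), and on 16 more rarely still (2.39% and 2.79%). Of the distal peaks without A673 H3K27ac, 16.8% on chromosome 13, 14.3% on 16 and 16.1% on 19 were removed for CHLA10 H3K27ac. The share was 23.5% on 21 and 24.0% in all. The copy number of these chromosomes in either line was not tested, nor was its part in these shares.

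**Figure D5:**
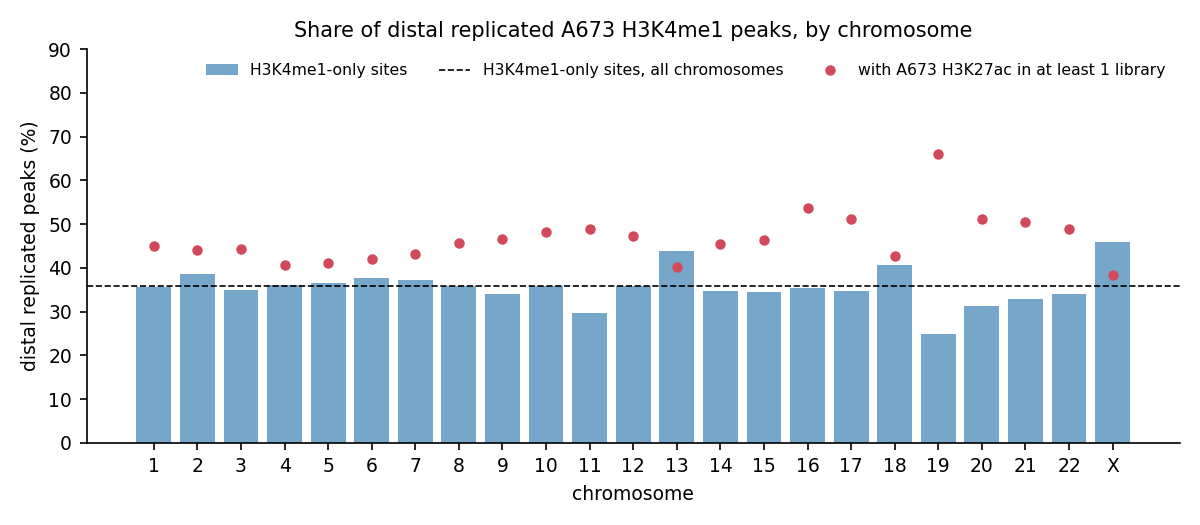
Share of distal replicated A673 H3K4me1 peaks in percent, by chromosome, that are H3K4me1-only sites (bars) or carry A673 H3K27ac in at least 1 library (dots); the dashed line is the 35.9% of sites over all chromosomes. Chromosome X has 45.8% of sites and chromosome 19 has 25.0%, where the dots stand at 38.3% and 66.0%.

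Each site was assigned to the protein-coding gene it lies in or else to the nearest within 100 kb. So 4302 of 19970 genes had at least 1 site (21.5%), and long genes had most: 48.8% of the longest 25%, against 6.71% of the shortest 25%. The counts below are therefore given with gene length and read as positions, not as gene activity. Not all lists below follow gene length. Sites outside a gene count too, so the space around a gene also enters: PTHLH, 14.65 kb long, had 4 sites and 0 inside it. DAB1, the adaptor of the reelin pathway in neuron migration, had 20 sites, all inside its 1552 kb. AUTS2, a Polycomb-associated gene of brain development, had 19 in 1195 kb. DLGAP1, a postsynaptic scaffold, LSAMP, a neuronal adhesion protein, and MSI2, an RNA-binding protein of stem cells, had 13 each.

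MSI2 was the densest of the 15 genes with most sites, with 2.69 sites inside per 100 kb. Those with 11 were GRIK2, a kainate receptor, NCKAP5, PRKCA, a protein kinase C, PARD3, a polarity protein, RORA, a nuclear receptor, SEMA6D, a semaphorin, CDH8, and GLI3, the transcription factor of Hedgehog signalling. GPC6, a glypican, and LINGO2 had 10. Inside GRIK2 lay 17 distal replicated peaks, of which 4 had A673 H3K27ac, and inside CDH8 lay 10, of which 2 had it. Inside RORA lay 25, of which 14 had it. No site of DAB1 or AUTS2 overlapped CHLA10 H3K4me1 in any library, and those of RORA did so at 3.

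Of 30 axon guidance genes 23 had a site (76.7%), against 21.5% of all genes, with a median gene length of 290 kb. SEMA6D had 11 sites, and DCC and ROBO1, the receptors of netrin and SLIT, 7 each, while SEMA3A had 6. Of 30 genes of synapses and neuronal adhesion 17 had one (56.7%), at a median gene length of 751 kb. GRIK2 led with 11, followed by LRP1B and NTM with 9 and CACNA2D1, a calcium channel subunit, with 8. Both lists hold genes longer than the longest 25% of all genes, of which 48.8% had a site at a median length of 128 kb.

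Of 30 genes known to be activated by EWS-FLI1 13 had a site (43.3%, median gene length 58.2 kb), against 21.5% of all genes. That length lies between the medians of the longest 25% (128 kb, 48.8% with a site) and of the 25% next below (39.2 kb, 20.4%). CDH8 had 11 sites, SLCO5A1 5, PRKCB 4 and TNC 3. All 6 distal replicated peaks inside SLCO5A1 lacked A673 H3K27ac, whereas 8 of the 13 inside PRKCB had it. Of 32 genes known to be repressed by it 11 had a site (34.4%, median length 24.9 kb), against 20.4% of the 25% of genes next below the longest, whose median is 39.2 kb, with 3 at PHLDA1, 2 at CALD1, 2 at INHBA, an activin subunit, and 1 at TGFBI. Inside CALD1, a cytoskeletal gene of mesenchymal cells, lay 12 distal replicated peaks, of which 8 had A673 H3K27ac.

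Among developmental pathways, the same 21.5% of all genes and, by rising length class, 6.71%, 10.3%, 20.4% and 48.8% serve as background, at median lengths of 3.89, 14.7, 39.2 and 128 kb. Of 31 TGF-beta and BMP genes 18 had a site (58.1%, median length 54.8 kb), led by SMAD3 with 4 and ACVR2A with 3, with 2 each at BMPR1A and SMAD1. Of 32 WNT genes 15 had one (46.9%, 51.9 kb), with 4 at LGR5, 3 at LRP6, 3 at TCF7L2 and 2 at FZD1. Of 30 mesenchymal and adhesion genes 17 had one (56.7%, 60.2 kb), with 4 each at the cadherins CDH11 and CDH2, 3 at TNC and 2 at THY1. Of 24 cartilage and bone genes 11 had one (45.8%, 51.3 kb), with 11 at GLI3, 9 at SOX6, and 4 each at SOX5 and PTHLH. Of 38 homeobox genes 14 had one (36.8%, 7.59 kb), with 3 each at ALX4 and MEIS1 and 2 at LHX1. No list was tested against the others or against genes of its length.

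Lists of markers of other cell types differed in their counts. Of 17 endothelial genes 7 had a site (41.2%, median length 25.9 kb), with 2 each at VWF and CDH5 and 1 each at EGFL7 and FLT1 among the leading 4. Of 17 epithelial genes 5 had one (29.4%, 7.09 kb), 1 each, including KRT8, CLDN4, EPCAM and CLDN3. Both shares are above the 21.5% of all genes. Of 18 haematopoietic genes 2 had one (11.1%, CSF1R and CD34), and of 15 myogenic genes 2 (13.3%, MYH3 and ACTA1). Of 20 housekeeping genes 2 had one (10.0%, YWHAZ and SDHA), and of 22 genes silent in most tissues 2 (9.09%), TG with 3 sites and TTR with 1. These 4 shares are below the 21.5% of all genes, but the genes are short. The median gene lengths of the 4 lists are 19.9, 19.2, 6.29 and 6.93 kb in the same order. Among all genes, the 3 shorter length classes had a site in 6.71%, 10.3% and 20.4%, at median lengths of 3.89, 14.7 and 39.2 kb.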

How the data were processed

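The 22 CUT&RUN libraries include 18 with peak lists, and the 4 IgG libraries entered no comparison. The submitters' processing notes name hg38, Bowtie2, MACS2, bedtools and SEACR 1.2 and do not say what each was used for. Per the file headers and peak names, the deposited narrow peaks were called against IgG, and H3K27me3 as broad peaks without a control. The deposited fold is an enrichment ratio given by the caller. The authors' −log10 p and −log10 q values come from the caller, and the deposited score is −log10 q times 10 cut to a whole number. These are the authors' values and were used only to describe and rank peaks within a list. The lists were called per library, and no peak has a −log10 q under 2.00.

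Only chromosomes 1 to 22 and X entered, with gene boundaries from RefSeq (GRCh38.p14, the hg38 assembly). An overlap of 1 bp sufficed. The 95% intervals of shares are exact (Clopper-Pearson) and hold the counting error alone. Read depth per library is unknown from these lists. The overlap functions were written in Python 3.11.15 with numpy 2.4.6 and pandas 2.3.3 and tested on simulated data. The regions and genes named are the 10 strongest and 5 longest sites, the 5 strongest with each CHLA10 feature, 5 of the 9 largest groups (by their strongest site), 3 peaks on each side of the distance limit, the 15 genes with most sites and the 4 leading genes of each of 15 lists. The members, lists and this rule were chosen with earlier results of these data known. All 385 list genes were found in the annotation. Motif and composition counts planned over the whole sites needed a genome of this build and were replaced by RefSeq start windows. Of the regions and genes this rule names, 2 are not reported here.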

Additional observations from a re-analysis of the deposited data

How the results depend on the processing

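The number of sites stayed within 1.5 times of 8828 under most settings, between 6299 (first library covering at least 50% of the peak) and 11596 (A673 H3K27ac lists only). It was 17446 without A673 H3K4me1 replicate 1, that is with replication not required, and 4426 in the upper 50% of the list by q. Leaving out any other single library gave 8892 to 10869. The share with CHLA10 H3K4me1 (7.92%, 7.90 to 7.94% with either library alone) was 2.15% in both libraries, 13.7% in at least 1, 2.27% with at least 50% of the site covered, 11.3% within 1 kb, 3.92% with the upper 50% of each CHLA10 list, 9.35% in the upper 50% of sites and 4.08% at summits. For H3K27me3 (3.74%, 3.70 to 3.78%) these were 2.15%, 5.34%, 3.19%, 4.68%, 2.09%, 3.39% and 3.22%. For H3K4me3 (1.22%, 1.18 to 1.26%) the first 5 were 0.566%, 1.87%, 0.300%, 3.13% and 0.204%, and summits gave 0.510%. CHLA10 HOXD13 was within 1 kb of 0.589% of sites. Inside any annotated gene lay 71.1%, and inside a protein-coding gene 62.6% of the upper 50% of sites and 58.3% of those with no CHLA10 peak. Neighbours were found for 7.67% within 5 kb and 29.6% within 25 kb. Values of the overlapping first-library peak gave a median fold of 7.42 and a median length of 726 bp. Some settings change what is counted, while the upper 50% of sites keeps the measure and takes the stronger sites. What moved each value was not tested. The number of genes with a site was 4070 within 50 kb and 2914 inside the gene only, and 27.3% of the 88 windows wholly inside a site held TGANTCA. Summits, the filter on first-library peaks (8234 sites) and the sites with no CHLA10 peak were added after seeing the data. So were the sets with no CHLA10 H3K27ac, the acetylated peaks held to the same bars and the start windows. No paired analysis was possible because the shares come from no test and the replicate numbers of different marks tie no libraries together. Sequence features of whole sites were not run. The calls depend on each library's unknown depth, so a site without a peak may hold a mark below the caller's limit.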

Other observations

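Of the 50 protein-coding start windows at the sites 11 held TGANTCA, and of the 100 long noncoding ones 32, against 6.15% and 10.3% of all start windows of the same kind. On chromosome 19, which holds 114 of the sites, the CHLA10 H3K4me1 libraries differed most in relative terms, with 6.14% of sites in the first and 0.877% in the second. All 3 CHLA10 histone marks were called at 3 sites (0.034%), each in at least 1 library.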
